A study of Homo sapiens and Mus musculus with 18 samples.

Results

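The cells compared here were Wt1-lineage cells of the embryonic mouse heart, labelled heart mesothelium, set against cells labelled in the same way from the lung, liver and gut. One of the 18 samples of the series is the heart library, and 3 others are the lung, liver and gut libraries. Genes were compared where their level reached 5 CPM (counts scaled to a library total of 1000000) in at least 1 of these 4 libraries, which 13367 of the 37991 listed mouse gene IDs did. Of the 24624 IDs under that level, 11417 had 0 counts in every library and 13207 had at least 1 count. The gene IDs nearest to the limit had a highest level of 5.0002 CPM inside it and 4.98 CPM outside it.

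The heart epicardium is the mesothelium of the heart, a sheet of epithelial cells that covers the muscle and, in the embryo, sends cells inward by an epithelial to mesenchymal transition. Those cells become fibroblasts and mural cells of the coronary vessels, and the sheet itself secretes signals to the growing muscle. The mesothelia of lung, liver and gut form a like sheet over their organs, and Wt1, a zinc finger transcription factor, is active in all of them in the embryo.

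All 4 groups came from Wt1creERT2/+ Rosa26tdT/+ embryos, so every library, the heart included, carried the creERT2 knock-in at one Wt1 allele. In these animals tamoxifen lets a recombinase made from the Wt1 locus switch on the red protein tdTomato for good, in the labelled cell and in all its descendants. Tamoxifen at 10 mg/ml was injected into the pregnant mothers from embryonic day E12.5 at intervals of 24 h. The titles date the harvest to E15.5, whereas the column names of the count table carry E14.5. Those names also number heart as Rep2, lung as Rep4, liver as Rep3 and gut as Rep1, with no other replicate of any organ in the table, and the columns were matched to the samples by organ. Whole organs were placed in collagenase IV and trypsin to digest their outer layer, and the tdTomato-positive cells were sorted. The label follows descent from cells with Wt1 active, so it does not tell the sheet from cells that have left it. Nor does it tell the sheet from any other cells in which Wt1 was active. The number of embryos behind each library is not given in the sources used here.

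Each organ had 1 library, so no difference below has a replicate check. Organ and library cannot be told apart, and fewer cells of a type cannot be told apart from less RNA per cell. The heart library held 31502905 counts, the lung library 21541758, that of liver 27398932 and that of gut 28752101. At 5 CPM the 95% exact Poisson interval ran from 4.26 to 5.86 CPM in the heart library and from 4.11 to 6.05 CPM in the shallowest library, that of lung. These intervals cover counting error only.

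The tissue label was not checked against genes. Myl2 encodes a light chain of ventricular muscle myosin, and Tbx20 and Tbx5 encode T-box factors of the developing heart. The count table carries gene IDs alone, and 0 of its 37991 IDs had a symbol in the gene name tables used here, so neither these markers nor those of muscle, vessel, blood, liver, lung or gut cells were looked up. Whether other cell types took part in any difference below was not tested. Genes are therefore described as groups defined by level, with 2 gene IDs in each direction.

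In the heart library 23589 gene IDs had at least 1 count, against 22914 in lung, 23833 in liver and 24180 in gut. At the depth of the lung library 22880 would be expected in heart, against 22914 in lung, 23381 in liver and 23642 in gut. At equal depth heart and lung were thus nearly equal, and both were below liver and gut. At 5 CPM or more there were 11909 genes in heart, 11930 in lung, 12206 in liver and 12284 in gut. The 10 most abundant genes took 10.02% of the heart counts, against 9.19% in lung, 9.13% in liver and 7.01% in gut. Of these 10 heart genes, 8 were among the 10 most abundant in each of the other 3 organs. Of the 100 most abundant heart genes, 72 were among the 100 of lung, 75 among those of liver and 73 among those of gut. The other pairs shared 77 for lung with liver, 78 for lung with gut and 83 for liver with gut.

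The difference of each gene was measured as the log2 ratio of its heart CPM to the mean CPM of lung, liver and gut, after adding 1 CPM to both, which understates the change of low genes. Most genes lay close together. Of 13367 genes, 11206 (83.8%) were within 2-fold either way, 478 (3.58%) were from 2-fold to under 4-fold higher in heart and 828 (6.19%) from 2-fold to under 4-fold lower. The median log2 ratio was -0.10, with quartiles of -0.36 and 0.12. Of the same genes, 361 (2.7%) were at least 4-fold higher in heart and 494 (3.7%) at least 4-fold lower. The genes nearest to the 4-fold limit had log2 ratios of 2.002 inside and 1.998 outside for the higher genes, and of -2.002 inside and -1.995 outside for the lower genes. When trimmed-mean scaling (TMM) replaced the library totals, the median was -0.0033. With that shift taken out, 388 genes were at least 4-fold higher in heart and 462 at least 4-fold lower.

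**Figure D1:**
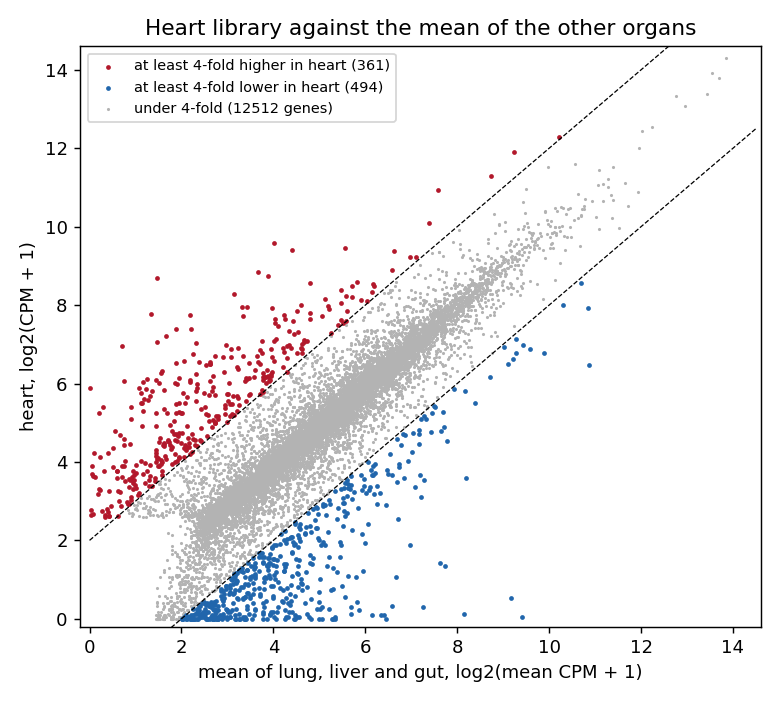
Each point is 1 of the 13367 genes, with log2(CPM + 1) in the heart library on the vertical axis and log2(mean CPM + 1) of lung, liver and gut on the horizontal axis. Dashed lines mark 4-fold differences. The 361 red genes lie above the upper line, the 494 blue genes below the lower line, and many of the blue genes lie at the bottom, near 0 in heart.

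The 361 genes higher in heart formed a moderately expressed group. Their median was 44.1 CPM in heart, against 3.02 in lung, 3.28 in liver and 3.55 in gut. Their quartiles were 17.7 and 101 CPM in heart, against 1.21 and 10.4 in lung, 1.28 and 10.5 in liver and 0.974 and 10.5 in gut. Low levels in the other organs follow from how the group was chosen. In heart, 102 of the genes were under 20 CPM, 167 from 20 to under 100, 87 from 100 to under 1000 and 5 at 1000 or more, with a highest value of 4972 CPM. Those 5 were also the members among the 100 most abundant heart genes, and 52 members were among the 1000 most abundant of heart, against 5 of lung, 4 of liver and 4 of gut. Together the group took 4.42% of all heart counts, against 0.683% in lung, 0.558% in liver and 0.568% in gut. Its 10 most abundant genes held 40.3% of its summed heart CPM.

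A ratio to the mean of 3 organs can be this high only where each of the 3 lies below heart, so the counts by organ describe the choice more than they add to it. Of 361, 243 were at least 4-fold above all 3 other organs taken one by one, 114 above exactly 2 and 4 above 1. Set against a single organ, 326 were at least 4-fold above lung, 319 above liver and 316 above gut. The highest of the other organs was lung for 105, liver for 132 and gut for 124. In 39 genes (10.8%) all 3 other organs were under 1 CPM, and no member had 0 counts in all 3. By size, 224 genes had a log2 ratio from 2 to under 3, 86 from 3 to under 4, 35 from 4 to under 5 and 16 of 5 or more.

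The highest log2 ratio belonged to ENSMUSG00000062515, with 414 CPM in heart (13047 counts), against 0.975 in lung (21 counts), 2.92 in liver (80 counts) and 1.43 in gut (41 counts). Its 95% exact Poisson interval was 407 to 421 CPM in heart, against 2.32 to 3.63 CPM in liver, the next highest organ. The heart level was 142 times that of liver. Heart being highest was part of the rule by which the gene was printed, and the intervals hold counting error only. On the log2(CPM + 1) scale its ratio to the mean of the others was 7.23, and the gene ranked 273 by abundance in heart, against 15384 in lung, 13459 in liver and 15087 in gut.

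The next was ENSMUSG00000053093, with 218 CPM in heart (6857 counts), against 2.55 in lung (55 counts), 1.496 in liver (41 counts) and 0.522 in gut (15 counts). Its interval was 213 to 223 CPM in heart, against 1.92 to 3.32 CPM in lung, and its log2 ratio was 6.44. The heart level was 85.3 times that of lung, the next highest organ.

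**Figure D2:**
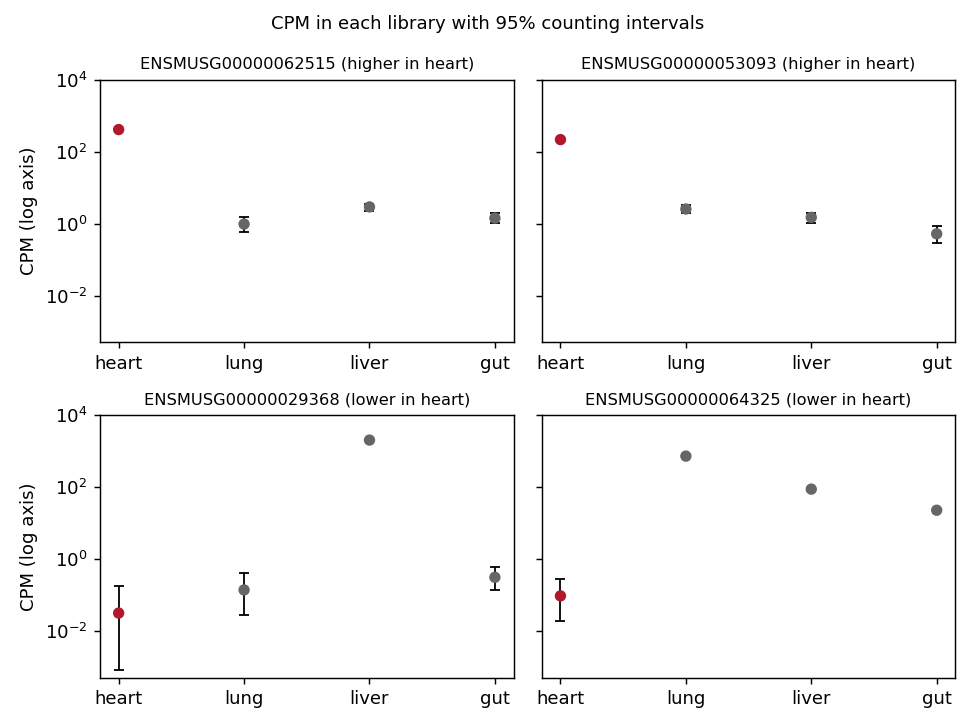
CPM of the 4 named gene IDs in each library, on a log axis, with heart in red and 95% exact Poisson counting intervals as bars. The upper genes reach 414 and 218 CPM in heart and at most 2.92 CPM elsewhere. Of the lower genes, ENSMUSG00000029368 is high in liver alone and ENSMUSG00000064325 is above 20 CPM in lung, liver and gut.

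The 494 genes lower in heart were low there, as their choice requires. Their median was 0.905 CPM in heart, against 8.05 in lung, 16.1 in liver and 13.6 in gut. In heart 253 of them were under 1 CPM and 50 had 0 counts. The 50 were counted as exactly 0, and for scale 3 counts in the heart library are 0.0952 CPM. Their mean over the other organs was under 20 CPM in 284 genes, from 20 to under 100 in 155, from 100 to under 1000 in 51 and at 1000 or more in 4, with a highest value of 1877 CPM. The group took 0.365% of the heart counts, against 3.00% in lung, 3.35% in liver and 2.46% in gut. None of its members was among the 100 most abundant heart genes and 3 were among the 1000, against 27 of the 1000 in lung, 32 in liver and 21 in gut.

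The lower genes differed among themselves in which single organs they were at least 4-fold below. At least 4-fold below all 3 other organs one by one were 90 of 494 genes, against 142 below exactly 2 organs and 262 below 1. Of those 262, liver was the organ for 135, gut for 73 and lung for 54. The highest organ was liver for 188 of the 494 genes, gut for 175 and lung for 131. The lower genes were themselves under 1 CPM in lung for 140, in gut for 98 and in liver for 33. A mean over 3 organs is pulled up by 1 high value, so a low ratio to it can come from 1 high organ, whereas a high ratio needs all 3 to lie below heart. With the median of the 3 organs in place of the mean, 447 genes were at least 4-fold higher in heart and 249 lower, which turns round the order of the 2 counts.

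The lowest log2 ratio, -9.38, belonged to ENSMUSG00000029368, with 0.0317 CPM in heart (1 count), against 0.139 in lung (3 counts), 2052 in liver (56215 counts) and 0.313 in gut (9 counts). The ratio of heart to the mean of the others was 4.64e-05, with an interval of 1.17e-06 to 0.000259 from the heart count alone. Heart, lung and gut were all close to 0 and their intervals overlapped between heart and each of these organs. Without liver the log2 ratio was -0.25, so the value is that of 1 organ, liver.

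The other gene ID printed for the lower group was ENSMUSG00000064325, with 0.0952 CPM in heart (3 counts), against 734 in lung (15820 counts), 88.6 in liver (2428 counts) and 23.0 in gut (660 counts). Its log2 ratio was -8.01, the third lowest of all, since the gene with the second lowest was not below every other organ in heart. The ratio to the mean of the others was 0.000338, with an interval of 6.96e-05 to 0.000987 from the heart count alone. Heart being lowest was part of the rule by which the gene was printed. The log2 ratio was -5.70 without lung, its highest organ.

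**Figure D3:**
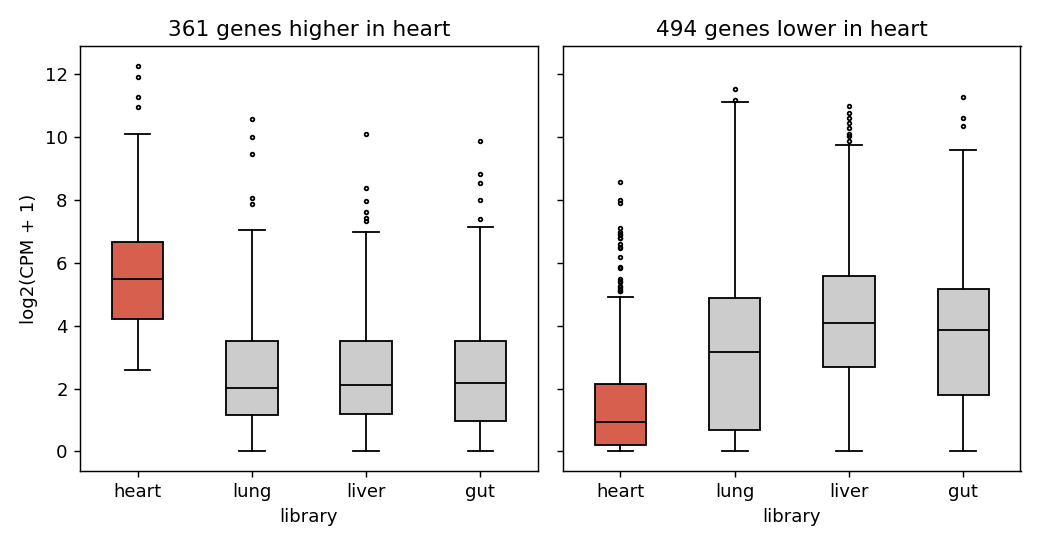
Box plots of log2(CPM + 1) in each library for the 361 genes at least 4-fold higher in heart (left) and the 494 at least 4-fold lower (right), with the heart in red, boxes between the quartiles, lines for the median and points for genes beyond the whiskers. Lung, liver and gut have nearly equal boxes on the left. On the right the heart box reaches lowest, and among the other organs the lung box reaches lowest and the liver median is highest.

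The share of genes past 4-fold varied with their level. A gene of low mean level can pass the minimum of 5 CPM through 1 organ, which places differences in the lowest class. Of 5048 genes under 20 CPM on average over the 4 organs, 221 (4.38%) were at least 4-fold higher in heart and 325 (6.44%) lower. From 20 to under 100 CPM the counts were 114 of 6123 (1.86%) and 126 (2.06%), and from 100 to under 1000 CPM 24 of 2122 (1.13%) and 39 (1.84%). Among the 74 genes at 1000 CPM or more, 2 (2.7%) were higher in heart and 4 (5.41%) lower. With the minimum raised to 20 CPM in at least 1 organ, 2.76% of genes were at least 4-fold higher and 3.49% lower.

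Presence at 5 CPM gave a coarser view. Of the 13367 genes, 11003 reached 5 CPM in all 4 organs, of which 105 were at least 4-fold higher in heart and 93 lower. Over all 13367 genes the counts were 361 (2.7%) and 494 (3.7%), so lower genes outnumbered higher ones there and not among the 11003. Most of both groups were thus under 5 CPM in at least 1 organ. Heart was the only organ at that level for 312 genes, lung for 136, liver for 356 and gut for 295. Of the 312, 167 were at least 4-fold higher in heart than the mean of the others, and these are part of the 361. The choice of the 312 puts heart above every other organ. Their direction was thus fixed in advance, and the 167 add no support to the 361. By contrast, 347 genes reached 5 CPM in lung, liver and gut and not in heart. The like number was 148 for genes missing this level in lung alone, 113 in liver alone and 80 in gut alone. Of the 347 genes missing it in heart, 121 were at least 4-fold lower there, and here too the choice fixed the direction. The rest of the 312 and of the 347 crossed 5 CPM with a difference under 4-fold.

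By pairs, the heart library was farther from each organ than these were from one another. At least 4-fold apart on the log2(CPM + 1) scale were 831 genes (6.22%) between heart and lung, 911 (6.82%) between heart and liver and 892 (6.67%) between heart and gut. The other pairs had 520 (3.89%) for lung with liver, 392 (2.93%) for lung with gut and 598 (4.47%) for liver with gut. Between heart and lung, 511 of the genes were higher in heart and 320 in lung. Between heart and liver, 430 were higher in heart and 481 in liver, and between heart and gut 437 in heart and 455 in gut. Across the 13367 genes, which are not independent replicates and share their libraries, Pearson's r of log2(CPM + 1) was 0.874 for heart with lung, 0.847 with liver and 0.860 with gut, and from 0.887 to 0.932 for the other pairs.

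Each organ was also set against the mean of its 3 others, in comparisons that share the same 4 libraries. Heart had 361 genes at least 4-fold higher and 494 lower, as given above. Lung had 93 (0.696%) higher and 411 (3.07%) lower, liver 271 (2.03%) higher and 269 (2.01%) lower, and gut 181 (1.35%) higher and 334 (2.5%) lower. Genes at least 2-fold above every other organ numbered 581 (4.35%) in heart, against 181 (1.35%) in lung, 378 (2.83%) for liver and 323 (2.42%) for gut. Genes at least 2-fold below every other organ numbered 414 (3.1%) for heart, against 111 (0.83%) for lung, 106 (0.793%) for liver and 76 (0.569%) for gut. At 4-fold, heart was below every other organ for 90 genes, lung for 12, liver for 11 and gut for 11, and heart was above every other organ for 243 genes, lung for 53, liver for 221 and gut for 112. Among these 4 libraries, then, heart had the highest count in every one of these classes. With 1 library per organ no test of that order was possible, and the order was not recomputed under other settings. A gene high in 1 organ alone can count as lower in each of the others. Of the 494 genes lower in heart, 135 were at least 4-fold below liver and below no other organ.

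**Figure D4:**
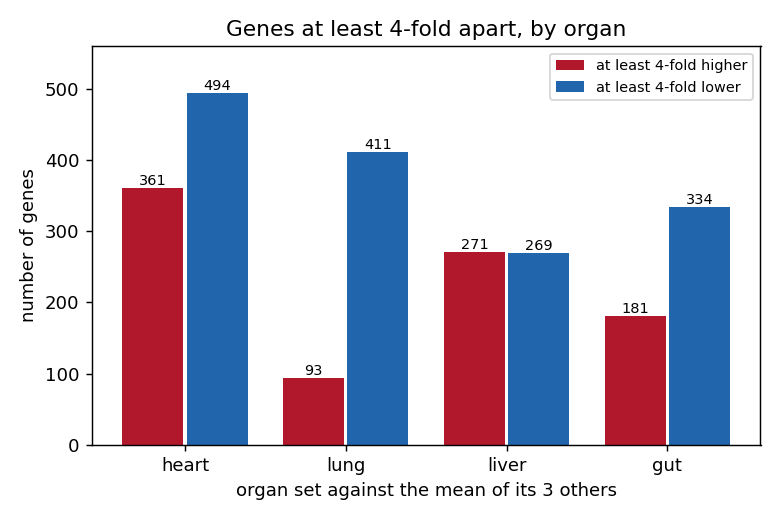
Number of genes at least 4-fold higher (red) and at least 4-fold lower (blue) when each organ is set against the mean of its 3 others, out of 13367 genes. Heart has 361 and 494, the highest red and blue bars, and lung has the lowest red bar at 93.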

How the data were processed

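The authors deposited whole-number counts per mouse Ensembl gene ID for 4 libraries of poly-A RNA, per the labels' protocols, with no normalization. The submitters' processing notes name featureCounts, Subread 1.4.2, Bowtie2 2.2.9 and TopHat2 2.0.13 without giving their roles. The only build in those notes, also for the mouse libraries, is the human build hg19. The mouse build, annotation release and strand setting are not stated in the labels, so reads shared by overlapping or near-identical genes cannot be resolved.

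Counts were scaled to CPM by library totals, and ratios used a pseudocount of 1 CPM. With 1 library per organ no test was run, and "at least 4-fold" is a size and not a significance call. The script was tested on counts simulated with counting error alone and with seeded changes larger than 4-fold. That test does not cover genes near the 4-fold limit or variation between libraries. Alternative scalings came from edgeR 4.0.16 (TMM) and DESeq2 1.42.0 (size factors) in R 4.3.3. Counting intervals came from scipy 1.17.1 and figures from matplotlib 3.10.9.

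The gene IDs printed were the first 2 in each direction by log2 ratio, with at least 20 CPM in heart (or on average in the others) and heart outside the range of the others. The part compared, the lists and the rules were chosen with earlier results of these data known. Gene lists by symbol, planned with their markers, were not run because no mouse ID had a symbol. The human libraries and the chromatin samples were not used here.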

Additional observations from a re-analysis of the deposited data

How the results depend on the processing

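The 2 counts of genes at least 4-fold from the mean of the other organs and the 4 printed ratios were recomputed under 12 alternatives, and the other counts were not. The number of genes at least 4-fold higher in heart stayed within 1.5 times of 361 in 11 of them, and was 200 with a pseudocount of 5 CPM. Its lowest values within that limit were 259 with a minimum of 20 CPM and 243 when heart had to be at least 4-fold above each organ. The 243 lay just inside the limit, and the 328 given next for the lower genes just outside it. The number at least 4-fold lower moved further from 494: it was 328 with a minimum of 20 CPM, 748 with a pseudocount of 0.1 CPM, 173 with one of 5 CPM, 249 with the median of the other organs and 90 when each organ had to be at least 4-fold above heart. Under these last 2 and with a pseudocount of 5 CPM, higher genes outnumbered lower ones. Leaving out lung, liver or gut gave 362 to 412 higher and 426 to 524 lower genes, and 330 to 337 of the 361 higher genes and 337 to 422 of the 494 lower genes remained. Of the 4 printed IDs, ENSMUSG00000062515 had log2 ratios from 5.95 to 7.79 and ENSMUSG00000053093 from 5.09 to 7.07. Those of ENSMUSG00000029368 ran from -12.34 to -0.14 and those of ENSMUSG00000064325 from -10.50 to -4.45. The printing rule, with heart outside the range of the others, fixed their sign in advance except under the 2 alternative scalings, where it was kept. A changed CPM minimum leaves a ratio as it is. The value of -0.14 rests on 1 count in heart against 3 in lung. Alternatives that need gene symbols were not run. No paired analysis was possible because each organ has 1 library. Depth limits low genes: 3 counts are 0.0952 CPM in heart.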
